A study of Mus musculus with 5 samples.

Results

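The 30 genes described here encode enzymes of cholesterol and fatty acid synthesis and the proteins that control them. They were chosen by symbol, and all 30 were found among the 32285 genes measured. Single cells of kidneys from 5 mice were sequenced after ischemia-reperfusion injury (IRI), in which the blood supply of the kidney is stopped and then restored. Mice 1 and 2 were taken at 48 h and mice 3, 4 and 5 at day 10, and each mouse gave 1 library. The labels give no strain, sex, age or duration of ischemia, and no uninjured kidney is among the samples, so each change below sets day 10 against 48 h. Cells carry the type labels that the authors assigned.

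Cholesterol is built from acetyl-CoA through mevalonate, isoprenoid units and squalene, and the first sterol, lanosterol, is trimmed and rearranged to cholesterol in the endoplasmic reticulum. Fatty acids are built from the same acetyl-CoA, then lengthened by elongases and given double bonds by desaturases. When membrane cholesterol is low, the transcription factors encoded by Srebf2 and Srebf1 are released from the membrane and switch on most of these genes, including Insig1, whose product holds the factors back when sterols are plentiful. Kidney tubule cells are known to gain cholesterol after injury.

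The activated factors are known to work together with NF-Y, which binds CCAAT, and with Sp1, which binds GC boxes such as GGGCGG. The 250 bases before the annotated start were therefore searched for both on either strand, in RefSeq promoters of build GRCm38.p6. The table used holds 23 of the 30 genes with 28 promoters; Sqle, Fdps, Fdft1, Stard4, Scd1, Scd2 and Fads1 are not in it. CCAAT was found for 19 of the 23 genes and in 71.4% of their promoters, against 33.8% of all 32851 promoters and 35.4% of those of coding genes. GGGCGG was also found for 19 genes, in 75% of the promoters against 32.7% and 42.6%. Both stood together for 17 genes, in 60.7% of the promoters against 11.01% and 14.7%. TCACNCCA, a form of the sterol response element, was found for 3 genes, Hmgcs1, Msmo1 and Srebf2 (10.7% of the promoters against 3.67%), and CACGTG, an E-box, for 4 (14.3% against 6.02%). Such matches describe the letters and show no binding.

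Parts of 4 promoters are shown for genes that the results turn on, without bases annotated as exon in GENCODE M21. Capitals mark the CCAAT motif, the GGGCGG motif and the TCACNCCA motif, or their reverse complements, and none of the CCAAT and GGGCGG matches shown overlap. The CCAAT match of Cyp51 lies outside the bases shown. They are chr5:4104747-4104947 on the minus strand for Cyp51, chr13:119690101-119690350 on the plus strand for Hmgcs1, chr5:28071162-28071362 on the plus strand for Insig1 and chr10:76531355-76531587 on the plus strand for Lss, each written 5′ to 3′ on its own strand.
Cyp51: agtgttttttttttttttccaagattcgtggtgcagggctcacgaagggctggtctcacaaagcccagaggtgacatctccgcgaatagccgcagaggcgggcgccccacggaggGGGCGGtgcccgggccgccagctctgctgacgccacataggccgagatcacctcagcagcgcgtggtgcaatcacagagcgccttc
Hmgcs1: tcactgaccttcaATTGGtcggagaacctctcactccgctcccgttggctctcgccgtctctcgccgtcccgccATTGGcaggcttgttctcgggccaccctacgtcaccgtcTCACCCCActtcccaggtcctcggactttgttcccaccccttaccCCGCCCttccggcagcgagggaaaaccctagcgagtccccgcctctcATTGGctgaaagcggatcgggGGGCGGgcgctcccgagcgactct
Insig1: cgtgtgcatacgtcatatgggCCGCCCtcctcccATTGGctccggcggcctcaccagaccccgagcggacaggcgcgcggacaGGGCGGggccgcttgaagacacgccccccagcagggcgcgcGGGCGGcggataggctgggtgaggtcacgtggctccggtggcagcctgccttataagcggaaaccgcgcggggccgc
Lss: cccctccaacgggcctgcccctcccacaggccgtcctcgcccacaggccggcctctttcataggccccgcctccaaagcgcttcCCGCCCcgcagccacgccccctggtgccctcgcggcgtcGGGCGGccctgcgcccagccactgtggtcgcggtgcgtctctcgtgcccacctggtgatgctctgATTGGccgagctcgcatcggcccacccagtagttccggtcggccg

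The libraries held 3720 to 5912 kept cells each, with a median of 5823 and 6260 unique molecular identifiers (UMIs) per cell at 48 h and 10328.5 to 11750 at day 10. Any 2 libraries shared 3 to 10 kept barcodes, at most 0.215% of the smaller library. Levels are in CPM, the UMIs of a gene per 1000000 UMIs of all cells of a type in a mouse, so more cells with a transcript and more transcripts per cell cannot be told apart. Fold changes are day 10 over 48 h from edgeR with scaling by the trimmed mean of M-values (TMM). Every adjusted p of a gene comes from its quasi-likelihood test with Benjamini-Hochberg correction over all genes tested in that type, and a gene was called changed where it was under 0.05. The standard error of such a fold change, on the log2 scale, is given as SE.

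The markers of 2 labels that touch the values below went against or beyond their names. The 7 proximal tubule markers summed to 2069 and 4463 CPM in the cycling proximal label at 48 h, but to 185, 140 and 185 CPM at day 10, when markers of injured, thick ascending and distal tubule were high there. The TEC label, of tubule cells with a median of 1556 to 1687 UMIs, had markers of several segments. The 4 hemoglobin genes summed to 14433 CPM in the interstitial cells of mouse 2, against at most 710 CPM in the other mice. Other labels held them too, among them endothelial cells (8878 and 12468 against 4911, 1.26 and 36.0 CPM) and immune cluster 5 (6789 and 6129 against 104, 0 and 34.5 CPM). In the TEC label they reached 15504 CPM in mouse 1, and in the descending thin limb they were at 953 and 1973 CPM at 48 h.

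Across types, the genes fell into different orders, and no type was highest for most of them. Among the 11 types that share no cells, the proximal tubule had the highest mean level for 8 genes, immune cluster 0 (rich in macrophage markers) for 6, and intercalated and interstitial cells for 4 each. Types were labelled from the same counts, so these levels are described without a test. Each molecule is counted once in this 3′ assay, with no correction for length.

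**Figure D1:**
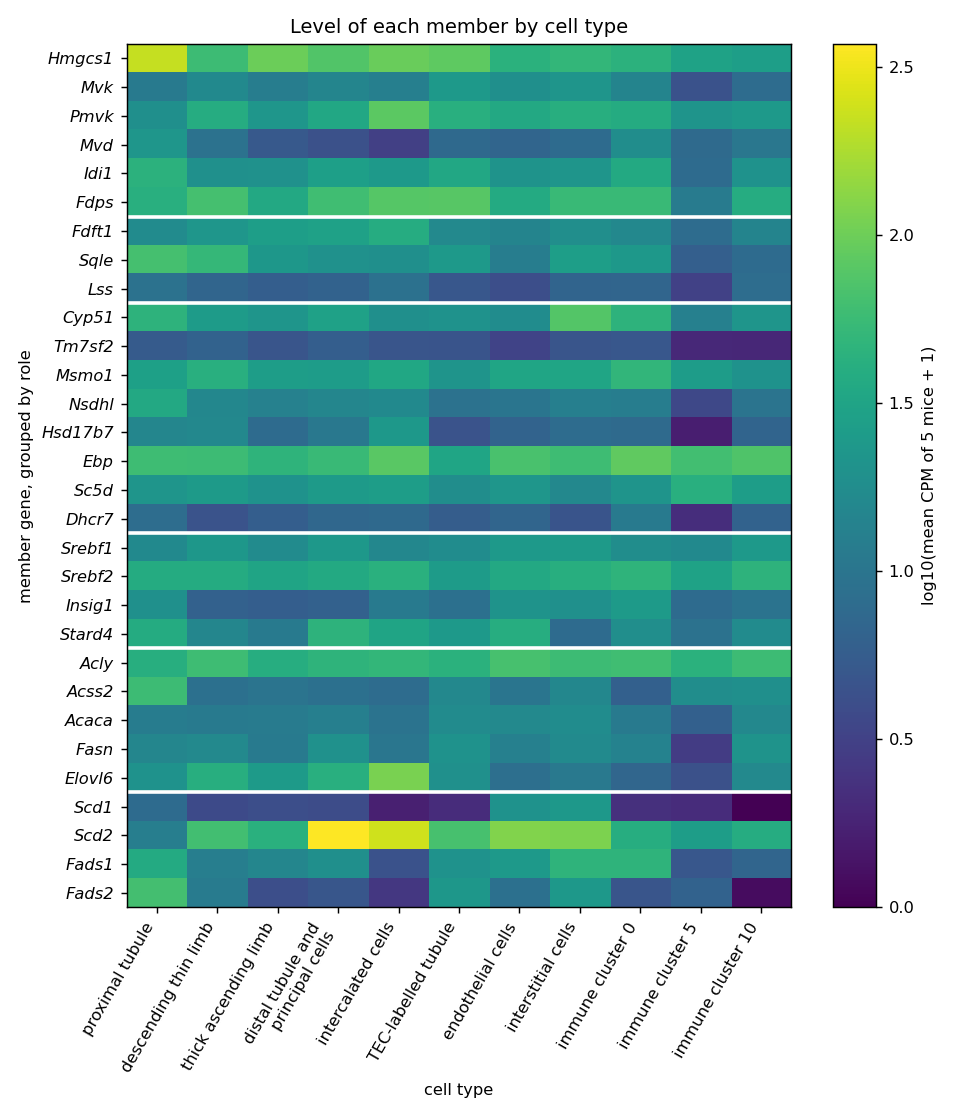
Heatmap of the mean level over 5 mice (colour, log10 of CPM plus 1) of each of the 30 genes (rows, grouped by role with white lines) in 11 cell types (columns). Hmgcs1 is highest in the proximal tubule (218 CPM), Elovl6 in intercalated cells (112.2 CPM) and Scd2 in distal tubule and principal cells (369 CPM).

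Of the 6 genes of the first steps, Hmgcs1, which makes the precursor of mevalonate, was at 162, 303, 260, 181 and 185 CPM in the proximal tubule of mice 1 to 5. Its mean of 218 CPM (SD 60.3, n = 5) was 2.25 times that of the next type, the thick ascending limb, and the proximal tubule was highest in 5 of 5 mice. Pmvk, the phosphomevalonate kinase, had another order: it was highest in intercalated cells in 5 of 5 mice, at 78.0, 59.3, 82.8, 90.7 and 99.7 CPM, and lowest in the proximal tubule (18.0 CPM). Fdps, the farnesyl diphosphate synthase, did not separate its leading types, with 77.7 CPM in the TEC label and 77.3 CPM in intercalated cells.

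Of the 3 genes that make and close squalene, Sqle, the squalene epoxidase, averaged 64.1 CPM in the proximal tubule and 50.5 CPM in the descending thin limb, and the proximal tubule was highest in 4 of 5 mice. Lss, the lanosterol synthase, was low in every type, at 2.14 to 8.25 CPM.

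Among the 8 genes that act on the sterol ring, Nsdhl, a sterol dehydrogenase, was highest in the proximal tubule in 5 of 5 mice (20.8 to 46.4 CPM), and Hsd17b7, a sterol ketoreductase, was highest in intercalated cells in 5 of 5 (15.2, 15.05, 18.4, 34.9 and 29.6 CPM). Cyp51, the lanosterol demethylase, was highest in interstitial cells in only 3 of 5 mice, those of day 10. Sc5d, a sterol desaturase, was the only member with its highest mean in immune cluster 5, which held neutrophil markers at 59260 CPM or more; it was highest there in 4 of 5 mice.

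Among the genes of fatty acid synthesis, Acss2, which makes acetyl-CoA from acetate, was at 43.4, 80.1, 58.7, 45.8 and 56.3 CPM in the proximal tubule and 3.18 times as high there as in the next type. Acly, the citrate lyase that makes acetyl-CoA in the cytosol, was spread evenly, from 38.8 CPM in the thick ascending limb to 65.6 CPM in endothelial cells. Elovl6, which lengthens palmitate, was highest in intercalated cells in 5 of 5 mice (148, 102, 137, 79.8 and 93.8 CPM), 2.78 times the next type.

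The desaturases differed widely between types. Scd2, a stearoyl-CoA desaturase, stood at 232, 334, 397, 533 and 348 CPM in distal tubule and principal cells, 31.6 times its mean in the proximal tubule, and it alone made up 34.4% of the UMIs of the whole set there. Within that type its mean was 503 CPM in principal cells, 495 CPM in the connecting tubule and 277 CPM in the distal convoluted tubule. Podocytes also had 487 CPM (SD 233, n = 5), with as few as 15 cells in a mouse. Its paralog Scd1 followed another pattern, with 22.5 CPM in interstitial and 19.2 CPM in endothelial cells and 2.92 CPM in distal tubule and principal cells. In immune cluster 12, a small cluster with B cell markers (9 to 36 cells per mouse), Scd1 was at 194, 150, 203, 69.1 and 135 CPM. Fads2, the first desaturase of polyunsaturated fatty acids, was highest in the proximal tubule in 5 of 5 mice (mean 61.8 CPM), while its partner Fads1 was level between immune cluster 0 (45.6 CPM) and interstitial cells (45.4 CPM).

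Summed over the 30 genes, the set was highest at both times in intercalated cells, distal tubule and principal cells and the proximal tubule and lowest in immune cluster 5. At 48 h these 3 types averaged 943, 883 and 859 CPM, and at day 10 they averaged 1183, 1171 and 1124 CPM, with ranges over mice that overlap each other. Interstitial cells stood at rank 8 of the 11 types at 48 h (559 CPM) and at rank 4 at day 10 (1054 CPM).

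The summed level was above every 48 h mouse in every day 10 mouse in 8 of the 11 types, with ratios of day 10 over 48 h from 1.17 to 1.89 over all 11. The highest ratio was that of interstitial cells, at 499 and 619 CPM at 48 h and 1178, 978 and 1007 CPM at day 10. The lowest was that of the descending thin limb, at 687 and 693 against 816, 868 and 730 CPM. The groups overlapped in the proximal tubule (713 and 1005 against 1222, 1229 and 921 CPM), in immune cluster 0 (520 and 672 against 908, 1045 and 667 CPM) and in immune cluster 10, which held T and NK cell markers. These sums were not tested.

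**Figure D2:**
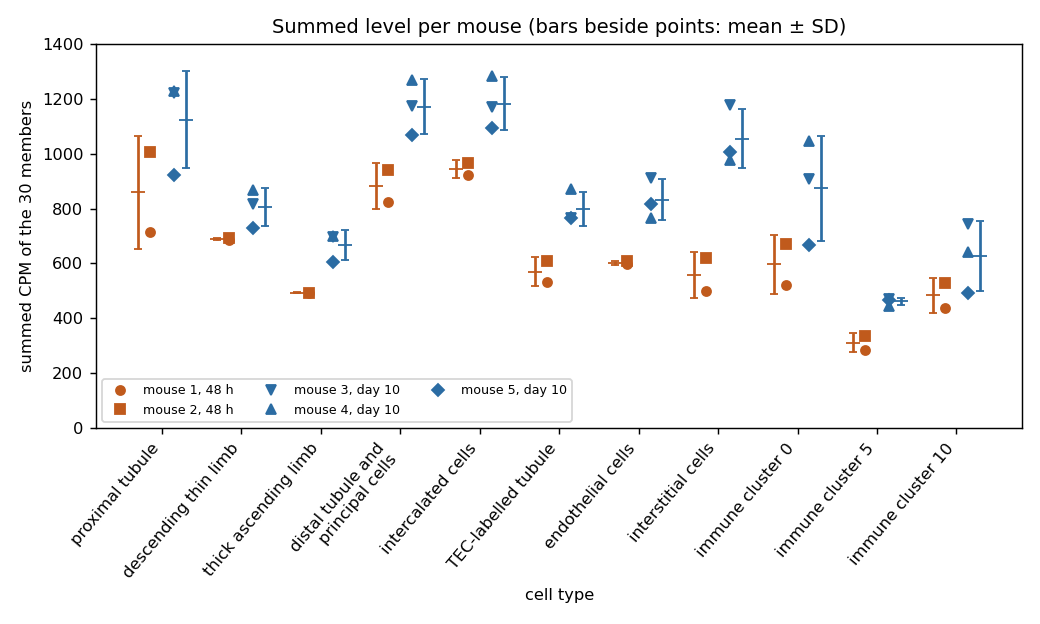
Summed CPM of the 30 genes (vertical axis) in 11 cell types, 1 point per mouse (orange for 48 h, blue for day 10), with the mean and SD of each time beside the points. Interstitial cells show the widest gap, from 499 and 619 CPM to 978 CPM or more, while the times overlap in the proximal tubule.

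Part of these sums moves with scaling. In the thick ascending limb the median share of mitochondrial UMIs per cell was 23.0 and 21.8% at 48 h and 6.89 to 8.70% at day 10, and the log2 ratio of the summed level there was 0.43 with all UMIs in the total, 0.20 without mitochondrial UMIs and 0.08 with TMM-scaled totals. With TMM-scaled totals it was 0.13 in place of 0.39 in the proximal tubule and 0.06 in place of 0.57 in immune cluster 5, and 0.93 in place of 0.92 in interstitial cells. With library totals in place of TMM, the median log2 fold change of all genes moved from 0.00 to 0.36 in the thick ascending limb, from 0.03 to 0.29 in the proximal tubule, from 0.04 to 0.57 in immune cluster 5 and from -0.01 to 0.16 in distal tubule and principal cells. A change of scaling shifts all genes of a type by nearly the same amount. The distance of the members from that median can therefore hardly change, and it is no check of the scaling. The median of the members lay 0.77 above that of all genes in interstitial cells, 0.69 in immune cluster 0, 0.49 in endothelial cells, 0.24 in the proximal tubule and 0.18 in the thick ascending limb. In immune cluster 5 it lay 0.13 (TMM) or 0.12 (library totals) below.

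With all cells of a mouse summed, 0 of the 30 members were called by edgeR, against 1.19% of the genes tested called higher and 0.645% called lower. At an unadjusted p under 0.05 there were 12 members, where 21.0% of genes were. DESeq2 called 7 members, all higher, and the share of all genes it called is not given here. By type the calls differed, as described next. Of the 11 types, interstitial cells had the most member calls with TMM scaling (9). With library totals they had 6, fewer than the 11 in the thick ascending limb.

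**Figure D3:**
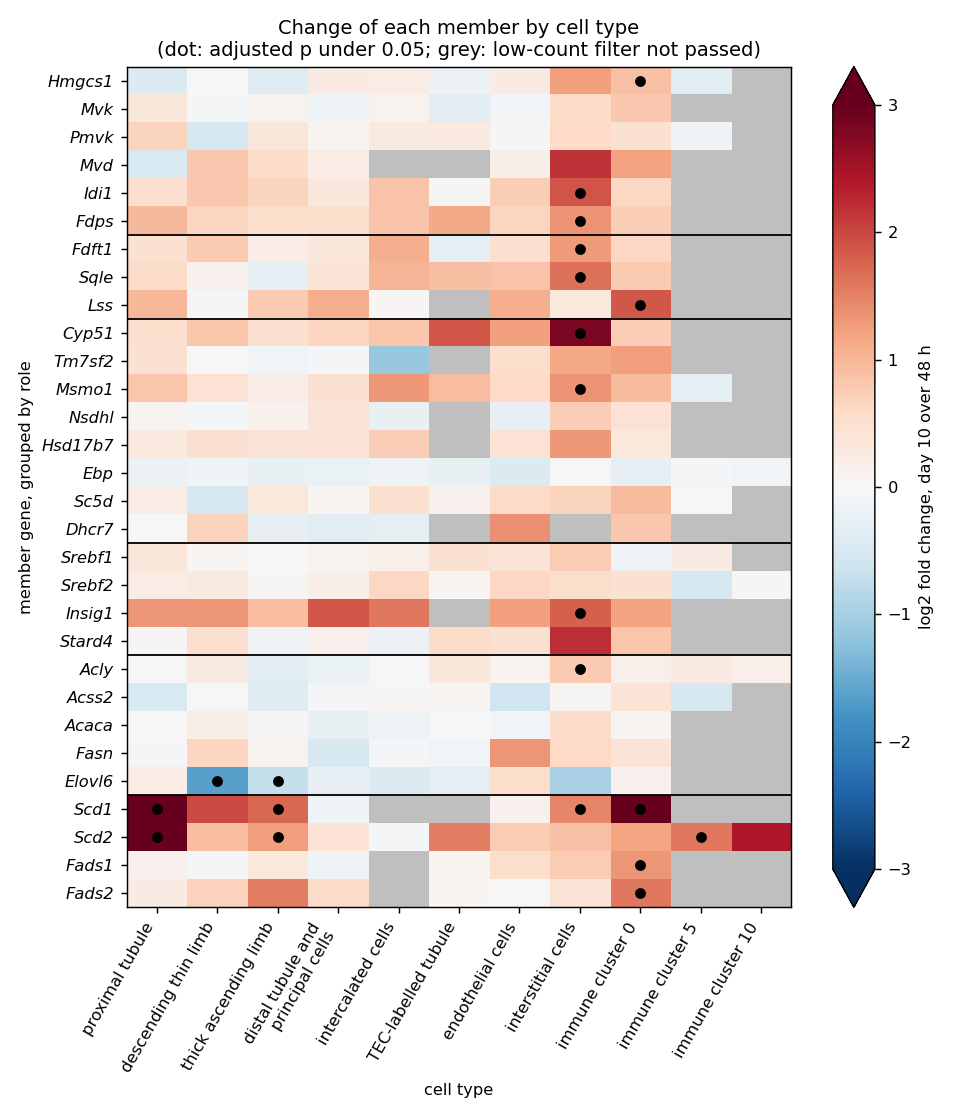
Heatmap of the log2 fold change (colour, day 10 over 48 h, ends cut at -3 and 3) of the 30 genes (rows, grouped by role with black lines) in 11 cell types (columns), with a dot for an adjusted p under 0.05 and grey where the filter on low counts was not passed. Interstitial cells carry 9 dots, among them Cyp51 at 2.82, and Elovl6 in the descending thin limb is at -1.63.

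In interstitial cells, genes of the isoprenoid, squalene and sterol ring steps and of fatty acid synthesis rose by day 10. Of 29 members past the filter on low counts (all but Dhcr7), 9 rose and 0 fell, where 3.91% of 11392 genes rose and 3.53% fell. The median log2 fold change was 0.79 for the members and 0.01 for all genes. Cyp51 was at 12.9 and 21.0 CPM at 48 h and at 112.8, 132 and 98.5 CPM at day 10, so that every day 10 mouse was more than 4 times above both 48 h mice (2.82 on the log2 scale, SE 0.29, adjusted p = 0.00163). Idi1, which makes the reactive isoprenoid unit, went from 10.3 and 5.24 to 39.2, 22.0 and 26.9 CPM (1.89, SE 0.44, adjusted p = 0.0382). Fdps, which joins such units, went from 27.2 and 29.7 to 85.0, 54.0 and 75.0 CPM (1.36, SE 0.27, adjusted p = 0.0221). In all 3 genes every day 10 mouse was above both 48 h mice, where 22.4% of all genes were.

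Both genes that make and oxidise squalene rose in the same cells. Fdft1, the squalene synthase, went from 11.6 and 6.99 to 21.3, 23.9 and 24.0 CPM (log2 fold change 1.28, adjusted p = 0.0482), and Sqle from 12.9 and 10.5 to 45.4, 33.6 and 30.8 CPM (1.66, SE 0.33, adjusted p = 0.0217). Msmo1, the sterol methyl oxidase that acts after Cyp51, went from 15.5 and 17.5 to 40.8, 36.1 and 46.1 CPM (1.34, SE 0.26, adjusted p = 0.0188). Insig1, a target of the sterol factors and their brake, went from 6.46 and 8.74 to 20.6, 29.5 and 26.4 CPM (1.79, SE 0.38, adjusted p = 0.0274). Of the fatty acid genes, Acly (0.79, adjusted p = 0.0439) and Scd1 (1.46, adjusted p = 0.0462) rose, Scd1 from 10.3 and 12.2 to 38.5, 24.2 and 27.4 CPM. Scd2 (0.88, adjusted p = 0.0821) and Hmgcs1 (1.22, adjusted p = 0.0529) did not pass, and neither did Srebf2 (0.52, adjusted p = 0.195) and Srebf1 (0.76, adjusted p = 0.235), whose day 10 mice all lay above the 48 h mice, as they did for 22.4% of all genes. Mvd and Stard4, a decarboxylase of the mevalonate steps and a sterol carrier, had 3 UMIs each at 48 h, and their ratios of summed CPM were 4.59 (95% interval 1.52 to 22.6) and 4.68 (1.56 to 23.1), intervals that cover counting error only.

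These calls rest on few cells at 48 h (115 and 71, against 349, 286 and 184 at day 10), and Cyp51 had 10 and 12 UMIs there. Without mouse 1 or without mouse 2 only Cyp51 was called (adjusted p = 0.025 and 0.0079). Without mouse 3 there were 5 calls, without mouse 4 there were 7 and without mouse 5 there were 4. With equal numbers of cells and counts there were 2, Cyp51 and Fdps. With library totals in place of TMM there were 6, without Acly, Fdft1 and Scd1, which DESeq2 did not call either.

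The make-up of the interstitial label changed too. Cluster 7 of the authors' clustering, the richer in interstitial markers, gave 28 and 23 of its cells at 48 h and 240, 208 and 98 at day 10, while cluster 9 gave 87 and 48 against 109, 78 and 86. Within cluster 7, Cyp51 was at 12.5 and 25.8 CPM (3 and 6 UMIs) at 48 h and at 131, 154 and 122 CPM at day 10, and it was called there too (2.83 on the log2 scale, SE 0.36, adjusted p = 0.00651; 1 of 27 members, where 1% of genes rose). Within cluster 9 it was at 13.1 and 17.7 against 15.1, 21.0 and 35.3 CPM (0.63, adjusted p = 0.724). There edgeR called 0 members (where 0.136% of genes rose), and 2 of 15 had an unadjusted p under 0.05 (where 10.8% of genes did). Cluster 7 gave most day 10 cells of the label, so values within it are not independent of the calls in the whole label. The other 8 genes called there were also higher in every day 10 mouse within cluster 7, where 23.3% of genes were, without passing. Among them Fdps was at 25.0 and 25.8 against 94.98, 57.5 and 71.4 CPM (1.56, adjusted p = 0.0775), and Sqle (1.28, adjusted p = 0.179), Fdft1 (0.98, adjusted p = 0.348) and Acly (0.97, adjusted p = 0.208) did not pass either. Msmo1 and Idi1 had 3 UMIs each at 48 h, and their ratios of summed CPM were 6.63 (95% interval 2.25 to 32.3) and 5.01 (1.70 to 24.5). The lowest folds were those of Insig1 (16.7 and 21.5 against 23.8, 32.0 and 28.4 CPM; 0.55, adjusted p = 0.593) and Scd1 (25.0 and 25.8 against 44.3, 28.6 and 34.4 CPM; 0.50, adjusted p = 0.568). Macrophage markers, all 7 detected, summed to 84.0 and 122 against 187, 226 and 215 CPM in the whole label and to 20.8 and 17.2 against 148, 140 and 184 CPM in cluster 7. Endothelial markers, all 6 detected, were at 62.5 and 150 against 207, 415 and 363 CPM in cluster 7. The part of the cluster shares and of these markers in the rises was not tested.

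**Figure D4:**
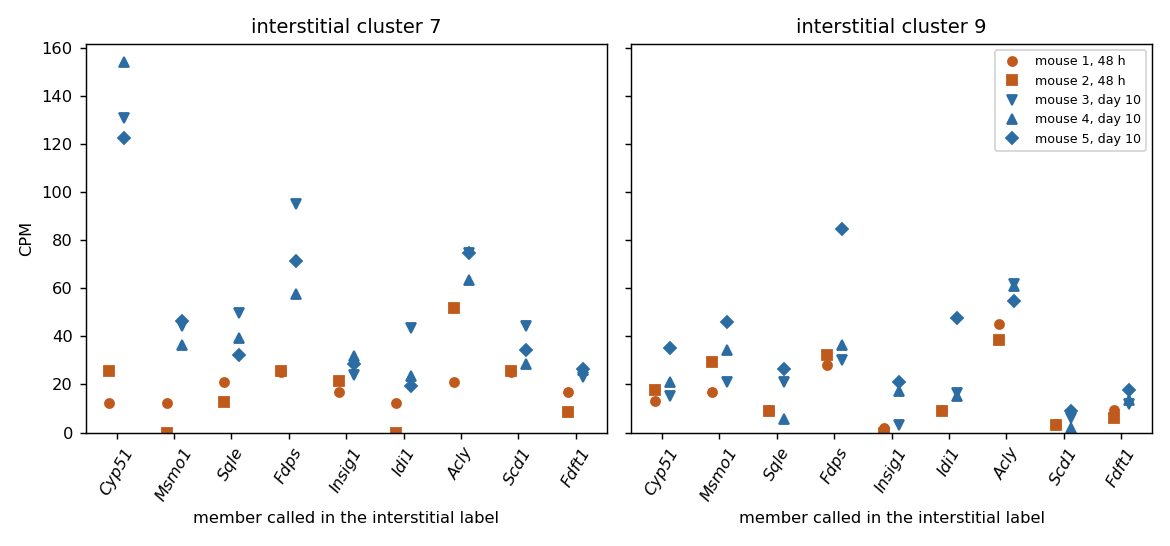
CPM (vertical axis, from 0) of the 9 genes called in interstitial cells, in cluster 7 (left) and cluster 9 (right) of that label, 1 point per mouse (orange for 48 h, blue for day 10). Cyp51 in cluster 7 stands apart at 122 to 154 CPM at day 10, while in cluster 9 it reaches 35.3 CPM.

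In the proximal tubule, the stearoyl-CoA desaturases Scd1 and Scd2 were the members called. Of 30 members 2 rose and 0 fell, where 1.28% of genes rose and 1.94% fell. Scd2 was at 1.66 and 1.80 CPM at 48 h and at 20.9, 22.7 and 11.3 CPM at day 10 (3.13 on the log2 scale, SE 0.37, adjusted p = 0.0149). Scd1 was at 0.605 and 0.684 CPM at 48 h, from 12 and 8 UMIs, and at 10.2, 17.8 and 5.54 CPM at day 10 (3.81, SE 0.59, adjusted p = 0.0278). Every day 10 mouse was more than 6 times above both 48 h mice in both genes. At an unadjusted p under 0.05 there were 3 more: Fdps (22.3 and 22.4 against 57.5, 68.5 and 32.2 CPM, 0.97, adjusted p = 0.133), Pmvk (0.68, adjusted p = 0.129) and Mvd (-0.46, adjusted p = 0.147). That makes 5 of the 30 members, where 22.7% of all genes had such an unadjusted p. Hmgcs1 (-0.40, adjusted p = 0.444) and Acss2 (-0.45, adjusted p = 0.345), both high in this type, overlapped between the times.

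The same pair was called in the label of injured proximal cells (2 of 30 members, where 2.76% of genes rose). Scd1 was there at 0.758 and 1.23 CPM at 48 h and at 17.0, 26.8 and 9.71 CPM at day 10 (3.79 on the log2 scale, SE 0.52, adjusted p = 0.0148). Scd2 went from 0.964 and 2.15 to 25.5, 35.4 and 12.1 CPM (3.73, SE 0.56, adjusted p = 0.0164). In S1 cells and in Lrp2-positive S2/3 cells, edgeR called 0 members (where 0.389% and 0.37% of genes rose). At an unadjusted p under 0.05 there were 5 of 29 and 8 of 30, where 15.9% and 18.0% of genes were. The values of Scd1 and Scd2 were higher in every day 10 mouse, where 28.4% and 29.5% of genes were. In the Lrp2-positive cells Scd1 was at 0 and 1.09 against 8.24, 26.2 and 5.62 CPM. In the cycling label Scd2 was at 5.78 and 2.63 against 126, 160 and 156 CPM, in the cells whose proximal markers were low at day 10.

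Because Scd2 is abundant in distal cells, the markers of other types were summed in the injured proximal label. The 7 distal and principal markers, all detected, summed to 10.4 and 16.9 CPM at 48 h and to 10.5, 20.5 and 34.9 CPM at day 10, and the interstitial markers to 3.10 and 2.45 against 14.3, 32.3 and 7.88 CPM. Intercalated markers, of cells that also have much Scd2, were at 2.14 and 3.68 against 9.34, 13.4 and 11.96 CPM, and macrophage markers at 22.9 and 11.6 against 52.5, 70.9 and 238 CPM. The label's own proximal markers were at 4399 and 7507 against 3914, 1768 and 3985 CPM. Every marker of these lists was detected, and their part in the rise was not tested. Without the cycling cells both genes were still called (Scd2 2.90, adjusted p = 0.0312; Scd1 3.76, adjusted p = 0.0236). Without injured and cycling cells neither was (Scd2 2.10, adjusted p = 0.136; Scd1 4.15, adjusted p = 0.0647). Both also lost the call without mouse 2 (adjusted p = 0.055 for Scd2 and 0.101 for Scd1) and without mouse 3 (0.0573 and 0.0745), and Scd1 without mouse 1 (0.0662) and with equal cells and counts (0.0797).

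**Figure D5:**
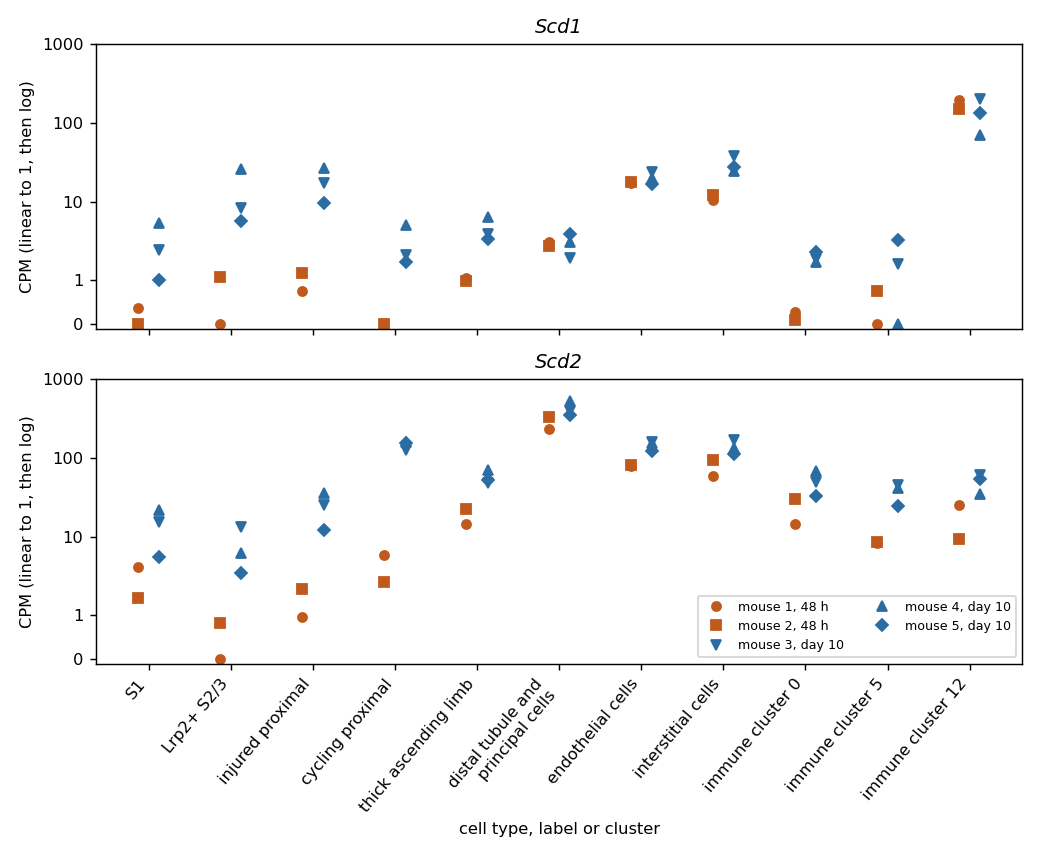
CPM (vertical axes, linear up to 1 and logarithmic above) of Scd1 (top) and Scd2 (bottom) in proximal labels and other cell types, 1 point per mouse (orange for 48 h, blue for day 10). In injured proximal cells Scd1 moves from 1.23 CPM or less to 9.71 CPM or more, whereas Scd2 in distal tubule and principal cells is above 200 CPM at both times.

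In the descending thin limb, Elovl6 fell by 1.63 on the log2 scale (SE 0.16, adjusted p = 0.0012). It was at 65.7 and 65.2 CPM at 48 h and at 20.5, 23.5 and 21.6 CPM at day 10, so the spread within each time was small beside the difference. This was the only call among 30 members, where 2.35% of genes fell and 2.77% rose, and it held under all 10 alternatives tried. The 4 markers of this segment, all detected, summed to lower levels too, at 7049 and 4516 against 3674, 3556 and 2525 CPM; their part in the fall was not tested. Scd1 (3 UMIs at 48 h, a ratio of summed CPM of 4.26, 95% interval 1.35 to 21.6, adjusted p = 0.162), Insig1 (1.33, adjusted p = 0.341) and Scd2 (0.92, adjusted p = 0.222) did not pass. They were higher in every day 10 mouse, where 22.4% of genes were.

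In the thick ascending limb, Elovl6 fell and both stearoyl-CoA desaturases rose. Here 3 of 30 members were called, where 4.98% of genes rose and 5.38% fell, so the share called was close to that of all genes. Elovl6 was at 28.5 and 27.4 CPM at 48 h and at 22.0, 23.0 and 20.5 CPM at day 10 (-0.72 on the log2 scale, SE 0.13, adjusted p = 0.0205). Scd2 went from 14.6 and 22.6 to 48.1, 70.8 and 51.8 CPM (1.26, SE 0.24, adjusted p = 0.021), and Scd1 from 1.09 and 0.979 to 3.91, 6.46 and 3.32 CPM (1.72, SE 0.43, adjusted p = 0.0448). With library totals in place of TMM, 11 members rose and 0 fell, the all-gene split of calls moving from 48.1% to 92.7% higher, and Elovl6 no longer passed (-0.36, adjusted p = 0.0805). With only cells under 20% mitochondrial UMIs, Elovl6 (-0.55, adjusted p = 0.075) and Scd1 (1.35, adjusted p = 0.123) did not pass and Scd2 did (1.12, adjusted p = 0.0419). Without mouse 5 none of the 3 passed (adjusted p = 0.114 for Elovl6, 0.0917 for Scd2 and 0.105 for Scd1). Without mouse 4 Scd2 had an adjusted p of 0.0524, without mouse 3 Elovl6 had 0.057, and Scd1 was lost without any 1 of the 5 mice (0.0749 to 0.136). Beside these calls, macrophage markers summed to 19.8 and 21.8 CPM at 48 h and to 182, 204 and 212 CPM at day 10 in this label, and intercalated markers to 23.2 and 33.8 against 63.2, 101.6 and 75.2 CPM. Neutrophil markers were at 145 and 616 against 12.4, 49.6 and 16.0 CPM, and injured tubule markers at 13339 and 10790 against 8101, 6642 and 6502 CPM. Every marker of these 4 lists was detected, and their part was not tested.

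In distal tubule and principal cells, edgeR called 0 of 30 members, where 0% of genes rose and 0.00774% fell, 1 gene in all. An unadjusted p under 0.05 was found for 4 members, where 7.92% of genes had one. DESeq2 called 1 member, and the share of all genes it called is not given here. Scd2 in particular was at 232 and 334 against 397, 533 and 348 CPM (0.43, adjusted p = 0.72). Among the labels pooled in this type, edgeR called 0 of 24 members in the connecting tubule and 0 of 29 in principal cells. It called 0 of 28 in injured distal cells. In these labels 0.0104%, 0.0448% and 0.0632% of genes rose and 0%, 0.0179% and 0.135% fell. The distal convoluted tubule had 2 rises among 21 members past the filter, where 0.391% of genes rose. Fdps was at 26.4 and 24.5 CPM there at 48 h and at 132, 114.2 and 143 CPM at day 10 (2.21 on the log2 scale, SE 0.26, adjusted p = 0.00685), and Msmo1 went from 15.8 and 6.43 to 41.6, 46.6 and 41.2 CPM (1.97, SE 0.39, adjusted p = 0.0424). The 48 h values rest on 25 and 39 cells, with 10 and 19 UMIs of Fdps and 6 and 5 of Msmo1. The 4 hemoglobin genes summed to 8136 CPM in those of mouse 2 and to 21.1 CPM or less in the other mice. Injured tubule markers, all 5 detected, summed to 12577 and 13582 against 3982, 2147 and 3768 CPM. The part of these genes was not tested.

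Endothelial cells gave no call, but many small differences in 1 direction. By edgeR 0 of 30 members were called, where 0.123% of genes rose and 0.205% fell. An unadjusted p under 0.05 was found for 17 members, where 13.9% of genes had one. DESeq2 called 3 members, and the share of all genes it called is not given here. Of the 30, 21 were higher in every day 10 mouse than in both 48 h mice, where 23.7% of genes were, and the median log2 fold change was 0.49 for the members and 0.00 for all genes. Insig1, at 8.43 and 12.9 against 26.4, 24.3 and 28.2 CPM (1.23, adjusted p = 0.0801), and Cyp51, at 9.42 and 8.38 against 24.0, 17.7 and 25.0 CPM (1.22, adjusted p = 0.0804), came closest. In cluster 3, the larger of the endothelial clusters, 2 of 30 members rose, where 0.469% of genes did: Cyp51 from 8.29 and 9.25 to 24.6, 18.5 and 23.7 CPM (1.26, adjusted p = 0.0423) and Scd2 from 87.0 and 86.8 to 174, 163 and 143 CPM (0.79, adjusted p = 0.0325). In cluster 8 edgeR called 0 of 19 members, where 0% of genes rose and 0% fell. Macrophage markers, all 7 detected, summed to 47.6 and 71.8 against 258, 295 and 585 CPM in the whole endothelial label. Neutrophil markers, all 7 detected, summed there to 1582 and 1544 against 366, 89.2 and 632 CPM. The part of these markers was not tested.

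In immune cluster 0, 3 of the 4 desaturases (Fads1, Fads2 and Scd1), Lss and Hmgcs1 rose, while Scd2 did not pass (14.6 and 30.2 against 48.8, 67.3 and 32.6 CPM; 1.19, adjusted p = 0.0809). Of 30 members 5 rose and 0 fell, where 11.5% of genes rose and 12.5% fell, so the share called was close to that of all genes. Fads1 went from 22.5 and 26.6 to 58.5, 68.6 and 51.7 CPM (1.33 on the log2 scale, SE 0.17, adjusted p = 0.00628), and Fads2 from 2.16 and 1.41 to 5.54, 4.95 and 4.72 CPM (1.58, SE 0.29, adjusted p = 0.0146). Scd1 had 2 and 1 UMIs at 48 h and 43, 48 and 49 at day 10, a ratio of summed CPM of 11.2 (95% interval 3.75 to 54.9; adjusted p = 0.00919). Lss went from 2.02 and 2.62 to 5.41, 13.3 and 5.88 CPM (1.86, SE 0.51, adjusted p = 0.0432), with mouse 4 far above the others. Hmgcs1 went from 25.9 and 33.8 to 56.0, 63.3 and 38.9 CPM (0.87, adjusted p = 0.0487).

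The cluster holds different cells at the 2 times. Monocyte markers summed to 3441 and 5153 CPM at 48 h and to 531, 851 and 754 CPM at day 10, neutrophil markers to 1463 and 3282 against 58.9 to 102 CPM, and macrophage markers to 9274 and 6041 against 14927 CPM or more; their part in these rises was not tested. Without mouse 2 there were 0 calls, without mouse 1 there was 1, and without mouse 4 there were 8. Over all immune cells, 3 of 30 members rose, where 10% of genes rose and 9.23% fell: Fads1 (1.56, adjusted p = 0.0063), Fads2 (1.31, adjusted p = 0.0222) and Lss (2.09, adjusted p = 0.0351). None of these 3 passed without mouse 1 or without mouse 2 (adjusted p = 0.056 to 0.185).

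The remaining types gave few or no calls. In immune cluster 5, Scd2 rose from 8.41 and 8.42 to 44.9, 41.9 and 24.6 CPM (1.59 on the log2 scale, SE 0.38, adjusted p = 0.0165), the only one of the 10 members past the filter, where 7.79% of genes rose and 10.7% fell; it was lost without mouse 2 (adjusted p = 0.0747) or mouse 3 (0.0633). Neutrophil markers summed there to 166385 and 219513 against 59260, 60946 and 66234 CPM, distal and principal markers to 59.7 and 57.8 against 164, 271 and 123 CPM, and interstitial markers to 37.8 and 39.4 against 199, 210 and 100.3 CPM; their part was not tested. In intercalated cells edgeR and DESeq2 called 0 of 26 members, where 0.0666% of genes rose and 0.171% fell by edgeR. At an unadjusted p under 0.05 there were 9, where 10.7% of genes were. In the TEC label edgeR called 0 of 22, where 0.282% rose and 0.243% fell. At an unadjusted p under 0.05 there were 4, where 9.68% of genes were. DESeq2 called 1 member there, and the share of all genes it called is not given here. In this label Scd2, at 20.8 and 35.9 against 76.1, 99.9 and 89.5 CPM, had an adjusted p of 0.0501 (1.54). In immune cluster 10 both tools called 0 of 4, where 0.0243% rose and 0.0728% fell by edgeR. At an unadjusted p under 0.05 there was 1, where 7.79% of genes were.

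Srebf1 and Srebf2, which encode the controlling factors, gave no call. Srebf2 was between 24.7 and 45.8 CPM in mean over the 11 types and Srebf1 between 14.5 and 24.2 CPM, and neither was called in any type; the log2 fold changes of Srebf2 ran from -0.52 in immune cluster 5 to 0.62 in intercalated cells and those of Srebf1 from -0.16 in immune cluster 0 to 0.76 in interstitial cells. Insig1, which is a target as well as a regulator, passed the filter in 8 of these types and had log2 fold changes of 0.93 (thick ascending limb) to 1.87 (distal tubule and principal cells), of which only that in interstitial cells was called.

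The time effect was compared directly between types with mouse as a block, each type against the proximal tubule. All comparisons share this reference, so those for the same gene are not independent of each other. The reference includes the cycling label, whose proximal markers were low and whose Scd2 was high at day 10, as described above. The comparisons were not rerun without that label. Scd1 and Scd2 were at low levels in the reference at 48 h, as given above. In interstitial cells 4 members differed from the proximal tubule, where 6.37% of 15825 genes did: the effect was 2.38 higher on the log2 scale for Cyp51 (SE 0.48, adjusted p = 0.0022), 2.65 for Mvd (adjusted p = 0.0301) and 1.64 for Hmgcs1 (adjusted p = 0.0134), and it was lower for Scd2 (-2.12, adjusted p = 0.000408). The effect on Scd2 was below that in the proximal tubule in 6 types, from -1.62 in immune cluster 5 to -2.60 in distal tubule and principal cells. That on Scd1 was below it in distal tubule and principal cells (-3.80, adjusted p = 0.000835; 2 members, where 3.03% of genes differed) and in endothelial cells (-3.61, adjusted p = 0.000256; 3 members, where 2.91% did). In immune cluster 5, 2 members differed (11.8% of genes), and in the TEC label edgeR called 0 (0.442% of genes). In immune cluster 0, 9 members differed, where 15% of genes did. Of these members 8 differed upward, including Mvd (1.71, adjusted p = 0.000284), Hmgcs1 (1.41, adjusted p = 0.00199) and Fads1 (1.30, adjusted p = 0.00175). The share of all genes that differed upward is not given here. Elovl6 in the thick ascending limb differed by -0.97 (adjusted p = 0.0453; 2 members, where 7.22% of genes differed).

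Of 25 further genes of sterol and fatty acid synthesis and its control, few were called, and the shares of all genes called in each type, given above, are the background. In interstitial cells 1 of 23 rose, Slc25a1, the citrate exporter of mitochondria that feeds Acly, from 22.0 and 27.9 to 58.2, 47.7 and 42.8 CPM (log2 fold change 1.04, adjusted p = 0.0458). In the thick ascending limb 1 of 24 rose, Mid1ip1, an activator of acetyl-CoA carboxylase (0.80, adjusted p = 0.0209), and 4 fell, among them Acacb, the mitochondrial acetyl-CoA carboxylase (-1.66, adjusted p = 0.016), and Scap, the escort of the sterol factors (-0.81, adjusted p = 0.0155). In the descending thin limb Mid1ip1 fell (-0.91, adjusted p = 0.013), as did the elongase Elovl7 (-0.78, adjusted p = 0.0198), and Me1, the malic enzyme that makes NADPH, rose (1.74, adjusted p = 0.0352), with 22 tested. In immune cluster 0, 3 of 23 rose, a share close to the 11.5% of all genes there, with the lipin Lpin1 from 3.51 and 3.42 to 25.9, 33.5 and 22.3 CPM (3.03, adjusted p = 0.00282).

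Of 15 genes of sterol efflux, esterification and release from lysosomes, 4 rose and 1 fell in interstitial cells, where 3.91% of all genes rose and 3.53% fell. Npc2 and Npc1, which hand cholesterol out of lysosomes, rose from 147 and 171 to 437, 402 and 450 CPM (1.46, adjusted p = 0.0018) and by 1.19 (adjusted p = 0.0288). Abca1, the cholesterol exporter, rose from 33.6 and 26.2 to 84.8, 86.1 and 82.2 CPM (1.51, adjusted p = 0.00395), Soat1, which esterifies cholesterol, rose (0.96, adjusted p = 0.047), and Mylip, a ubiquitin ligase, fell (-0.85, adjusted p = 0.0311). In immune cluster 0, 9 of 15 rose and 2 fell, where 11.5% of all genes rose and 12.5% fell, with Abca1 at 2.36 (adjusted p = 0.00574) and the hydroxylase Cyp27a1 at 2.65 (adjusted p = 0.00282), and with falls of Ch25h, the cholesterol hydroxylase (-3.01, adjusted p = 0.00124), and of the lipid droplet protein Plin2 (-1.88, adjusted p = 0.0034). In the proximal tubule 1 of 15 was called, Apoe, a lipid carrier that macrophages make in quantity, at 137 and 105 against 851, 1287 and 1064 CPM (2.87, adjusted p = 0.00646); macrophage markers were there at 23.5 and 21.6 against 100.3, 217 and 193 CPM in sum, all 7 detected, and their part was not tested. Apoe was also called in the thick ascending limb (5.14), the TEC label (4.07), the descending thin limb (3.96), intercalated cells (5.17) and immune clusters 0, 5 and 10 (3.95, 4.29 and 4.28), with adjusted p of 0.000148 to 0.0477.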

How the data were processed

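Kidney cells of 5 mice were captured with the v3.1 kit of 10x Genomics, per the labels. Processing used Cell Ranger (6.0.2 per the submitters' processing notes, 6.0.0 per the matrix headers) on mm10, and Seurat 4.0.5 is also named in those notes. The authors deposited raw UMI counts per gene and barcode, and a table of kept cells with a type label, a cluster, UMI and gene counts and the percent of mitochondrial UMIs. The deposited counts and percent values equalled those of the matrices for every kept cell, and every library pair differed beyond sampling noise. No doublet caller was run.

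UMIs were summed per mouse and type, with labels of 1 parent type merged and the immune label also split by deposited cluster, where every library held at least 20 cells. Sums were tested with edgeR 4.0.16 in R 4.3.3 (filterByExpr, TMM, quasi-likelihood F test, Benjamini-Hochberg, threshold 0.05), with an interaction of type and time in a fit with mouse as a block, and with DESeq2 1.42.0 as an alternative. Ratios with 1 to 3 UMIs at 48 h have exact 95% intervals. The scripts were tested on simulated data. P-values measure the spread between these mice.

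The members, the lists of 25 and 15 further genes, the markers and the tests were chosen with earlier results of these data known. Genes outside the 30 were named only from those lists, where past the threshold in a type, at most 4 higher and 4 lower.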

Additional observations from a re-analysis of the deposited data

Results flagged for a closer look

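The time effect of 13 members differed between the proximal tubule and another type in 22 comparisons (edgeR interaction term, adjusted p under 0.05). Of all genes, 6.37% differed in interstitial cells, 15% in immune cluster 0, 2.91% in endothelial cells, 3.03% in distal tubule and principal cells, 7.22% in the thick ascending limb and 11.8% in immune cluster 5. Comparisons of 1 gene share the proximal tubule and are not independent. That reference includes the cycling label, and the comparisons were not rerun without it. Each value is the log2 fold change of the other type minus that of the proximal tubule. In interstitial cells the values were 2.384 for Cyp51, 2.651 for Mvd, 1.638 for Hmgcs1 and -2.117 for Scd2. In immune cluster 0 they were 0.948 for Acss2, 0.895 for Dhcr7, 1.711 for Mvd, 0.7998 for Sc5d, 1.406 for Hmgcs1, 0.9269 for Stard4, 1.439 for Fads2, 1.303 for Fads1 and -1.747 for Scd2. Endothelial cells gave 1.369 for Dhcr7, -2.32 for Scd2 and -3.611 for Scd1, and distal tubule and principal cells gave -2.605 for Scd2 and -3.802 for Scd1. In the thick ascending limb Elovl6 differed by -0.9664 and Scd2 by -1.791, and in immune cluster 5 Srebf2 differed by -0.9884 and Scd2 by -1.615.

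Barcodes that the authors left out for a mitochondrial share of 35% or more also held the set. Its summed level there was 389.3 and 468.2 CPM in the 48 h mice and 792.5, 600.1 and 541 CPM in the day 10 mice, where 3 counts would give at most 0.76 CPM.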

How the results depend on the processing

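Of 24 calls of a member in a type, 2 were kept under every alternative run, Cyp51 in interstitial cells and Elovl6 in the descending thin limb, and none reversed. The share of all genes called under each alternative is not given here, so the counts show only how far the number of calls moves. With DESeq2 the members called were 7 in all cells, 1 in distal tubule and principal cells, 1 in the TEC label, 3 in endothelial cells, 13 in immune cells and 11 in immune cluster 0. Without the filter on low counts they were 5 in the thick ascending limb, 1 in distal tubule and principal cells, 3 in the TEC label, 4 in endothelial cells, 14 in interstitial cells, 10 in immune cells, 10 in immune cluster 0, 4 in the descending thin limb, 4 in intercalated cells and 1 in immune cluster 10. With equal cells and counts they were 1 in the proximal tubule, 2 in interstitial cells, 5 in immune cells, 3 in immune cluster 0 and 1 in intercalated cells. With library totals they were 11 in the thick ascending limb, 6 in interstitial cells and 1 in the TEC label, without injured and cycling cells 0 in the proximal tubule, and in interstitial cluster 7 alone 1. Leaving out each mouse in turn gave 0 to 2 in the proximal tubule, 0 to 4 in the thick ascending limb, 0 to 1 in the TEC label, in endothelial cells, in immune cluster 5 and in immune cluster 10, 1 to 7 in interstitial cells, 0 to 8 in immune cells and in immune cluster 0, and 1 to 2 in the descending thin limb; a lone 48 h mouse was assumed to vary like the day 10 mice. Members whose time effect differed from the proximal tubule numbered 1 in the thick ascending limb, 5 in immune cluster 0 and 0 in immune cluster 5 with library totals, 1 in the TEC label without the filter, and, leaving out a mouse, 1 to 2, 2 to 5 (interstitial), 1 to 7 and 0 to 2. The log2 ratio of the summed level was 0.527 in the thick ascending limb without its most abundant member, 0.540, 0.288 and 0.580 in the thick ascending limb, the TEC label and endothelial cells as the median of the members' ratios, 0.203 in the thick ascending limb without mitochondrial UMIs, 0.240 in distal tubule and principal cells under 20% mitochondrial UMIs, 0.0764, 0.242, 0.354 and 0.0607 with TMM-scaled totals in the thick ascending limb, distal tubule and principal cells, the TEC label and immune cluster 5, and 0.459 to 0.691 in immune cluster 5 leaving out a mouse. TMM-scaled totals, interstitial cluster 7 alone and the proximal tubule without cycling cells were chosen after seeing the data. Causes were not tested. The calls in injured proximal cells, the distal convoluted tubule and endothelial cluster 3 were not rerun under alternatives. No paired analysis was possible because the mice of the 2 times share no replicate numbers. Depth limits the interstitial values at 48 h, where Cyp51 had 10 and 12 UMIs.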
